A study of Mus musculus with 6 samples.

Results

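The carboxylesterases described here are 10 mouse genes, *Ces1c*, *Ces1d*, *Ces1e*, *Ces1f*, *Ces1g*, *Ces2a*, *Ces2b*, *Ces2c*, *Ces2e* and *Ces2g*, out of 54532 genes in the deposited table. They were chosen by symbol, after *Ces1g* had been seen among the largest decreases of the comparison used below. The differences between groups given for these 10 genes are therefore a description of the libraries, and no test is drawn from them. RNA came from whole kidneys of male C57BL/6 mice that had been on chow containing doxycycline (600 mg/kg) for 4 days. Control mice carried the KsprtTA transgene alone, although the deposited labels call them WT. KSPAPN mice carried KsprtTA together with TRE-Adiponectin, so that doxycycline switches on adiponectin in tubular epithelium. The Ksp-cadherin promoter drives KsprtTA along the tubule, the proximal part and the collecting duct included, so the transgene is not limited to the segment where a given carboxylesterase is made. Each group had 3 libraries, each a pool of 3 mice, and the age at harvest was not given in the sources used here.

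Carboxylesterases are serine hydrolases that cut ester, thioester and amide bonds in drugs, pesticides and lipids. Most of them are held in the lumen of the endoplasmic reticulum, where Ces1 enzymes act on triacylglycerol and cholesteryl esters and Ces2 enzymes on acylglycerols and many prodrugs. In the mouse each branch has been multiplied by tandem duplication, and the liver, gut, fat and kidney each use a different set of copies.

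The libraries held 17183358 to 20871173 counted reads. *Adipoq* had 2, 0 and 2 reads in Control and 24629, 17483 and 26811 reads in KSPAPN, so each library matched its label. All 10 genes lie on chromosome 8 of GRCm38. The Ces1 cluster spans bases 93020214 to 93379725 and the Ces2 cluster bases 104734003 to 105021178. Of the 10 genes, 8 had enough reads for the comparison across 16017 genes with edgeR's quasi-likelihood test, and *Ces1c* and *Ces2a* did not.

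RefSeq promoter windows on GRCm38.p6 were found for 7 of the 10 genes and were not found for *Ces1d*, *Ces1f* and *Ces2b*. Below are the 250 bases before the start of 4 of them, 5′ to 3′ on the gene's strand. They are *Ces1g*, which differed most between the groups, *Ces1e* of the same cluster, *Ces2c*, the most abundant Ces2 gene, and *Ces2e*, the Ces2 gene whose groups did not overlap. Capitals mark matches, on either strand, to the TATA box (TATAAA), the CCAAT box (CCAAT), the GC box (GGGCGG), the E-box (CACGTG), or core elements of HNF1 (GTTAAT), HNF4 (CAAAGTCCA), other nuclear receptors (AGGTCA) and the androgen and glucocorticoid receptors (AGAACA).
Ces1g (chr8:93337210-93337459, minus strand): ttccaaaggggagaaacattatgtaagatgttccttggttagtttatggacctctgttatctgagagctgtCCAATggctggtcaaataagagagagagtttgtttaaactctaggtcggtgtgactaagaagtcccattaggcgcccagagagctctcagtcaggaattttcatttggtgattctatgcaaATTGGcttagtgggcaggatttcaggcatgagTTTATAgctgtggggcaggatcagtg
Ces1e (chr8:93229620-93229869, minus strand): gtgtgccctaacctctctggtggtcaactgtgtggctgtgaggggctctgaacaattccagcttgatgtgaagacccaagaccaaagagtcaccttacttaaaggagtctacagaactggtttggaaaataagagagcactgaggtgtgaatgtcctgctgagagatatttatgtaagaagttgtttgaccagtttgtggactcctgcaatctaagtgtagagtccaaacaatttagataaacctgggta
Ces2c (chr8:104846818-104847067, plus strand): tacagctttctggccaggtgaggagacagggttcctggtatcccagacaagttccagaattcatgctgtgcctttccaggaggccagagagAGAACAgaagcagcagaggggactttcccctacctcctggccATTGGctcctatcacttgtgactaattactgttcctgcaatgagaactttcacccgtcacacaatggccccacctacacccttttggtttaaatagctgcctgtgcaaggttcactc
Ces2e (chr8:104926010-104926259, plus strand): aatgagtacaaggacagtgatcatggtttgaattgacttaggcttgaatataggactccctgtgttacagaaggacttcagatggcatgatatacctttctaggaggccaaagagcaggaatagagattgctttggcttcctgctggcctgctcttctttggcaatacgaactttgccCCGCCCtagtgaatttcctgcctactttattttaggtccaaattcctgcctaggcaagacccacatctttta

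The *Ces1g* window held CCAAT beginning 179 bases before the start and its reverse complement ATTGG beginning 58 bases before it, as well as TTTATA, the reverse complement of TATAAA, 26 bases before it. GENCODE extends the *Ces1g* gene 99 bases into this window. *Ces1e* held none of the motifs. *Ces2c* had AGAACA 159 bases before its start and ATTGG 117 bases before it, and *Ces2e* had CCGCCC, the GC box on the other strand, 72 bases before it. CCAAT was present in 5 of the 7 windows of the described genes and in 33.8% of all 32851 windows of this length. TATAAA was in 1 of the 7 and in 12.4% of all, AGAACA in 2 and 16.1%, AGGTCA in 1 and 14.0%, and GGGCGG in 1 and 32.7%. The HNF1 element, the HNF4 element and the E-box were in 0 of the 7, and in 6.43%, 0.384% and 6.02% of all windows. In *Ces2a*, CCAAT and AGGTCA matches lay next to each other, 231 and 226 bases before the start. For alignment end to end, all 15 carboxylesterase genes with a window were used. Windows of Ces1 genes were 58.4% to 85.2% identical to each other (median 60.8%) and those of Ces2 genes 54.8% to 70.0% (median 62.4%). Between the branches the range was 54.8% to 62.0% (median 58.8%). The highest value was that of *Ces1b* with *Ces1c*. Pairs of the described Ces1 genes were 58.4% to 63.6% identical. Windows of unrelated genes were not aligned.

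In Control, *Ces1f* had the highest level of the 10 genes, with a mean of 213.5 ± 37.0 FPKM (SD, n = 3 libraries), where FPKM is the deposited read density, scaled by gene length and by sequencing depth. *Ces2c* at 118 ± 38.6 and *Ces1d* at 117 ± 19.1 FPKM followed, and their ranges overlapped. *Ces1e* was next, at 41.0 ± 8.68 FPKM. *Ces1g* (6.95 ± 4.86 FPKM), *Ces2b* (6.09 ± 3.68) and *Ces2e* (5.77 ± 1.06) formed a lower tier in which neighbours in the order overlapped, and *Ces2g* stood below them at 1.74 ± 0.301 FPKM. In KSPAPN the first 4 places were held by the same 4 genes in the same order, but *Ces1g* dropped behind *Ces2b*, *Ces2e* and *Ces2g* to 1.02 ± 0.492 FPKM. There the ranges of *Ces1f* and *Ces2c* overlapped, which they did not in Control. *Ces1f* was at place 163 of 21995 protein-coding genes by mean FPKM in Control and at place 247 in KSPAPN. *Ces1d* was at places 382 and 779, and *Ces1g* at places 5657 and 11187.

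**Figure D1:**
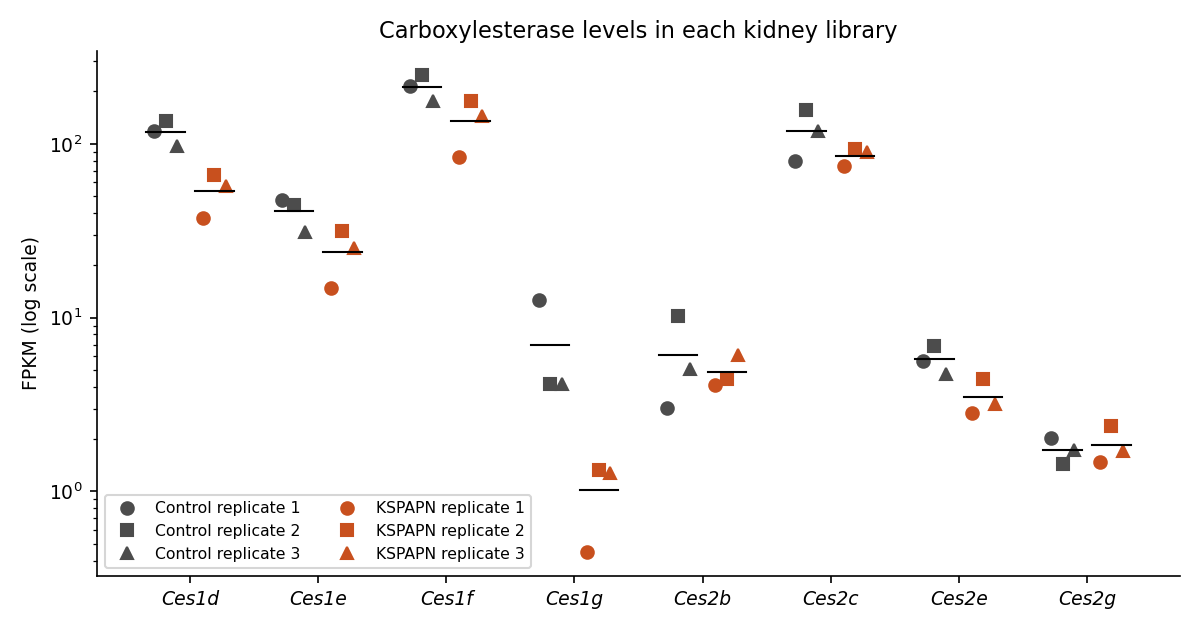
FPKM of the 8 carboxylesterases that could be compared, on a log axis, with 1 point per library, grey for Control and orange for KSPAPN, marker shape for the replicate number and a line at each mean. The KSPAPN points of *Ces1d*, *Ces1g* and *Ces2e* all lie below the Control points, and KSPAPN replicate 1 is the lowest KSPAPN point for every gene.

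Of the 8 genes compared, 7 had a negative log2 fold change, that is, were lower in KSPAPN, and 1, *Ces2g*, was slightly higher, while 48.1% of all genes tested had a negative one. The median log2 fold change of the 8 was -0.70, and that of all genes tested was 0.012. With edgeR and an adjusted p under 0.05, 2 of the 8 were lower, *Ces1d* and *Ces1g*, and 0 were higher. The background share was 2.25% of genes for lower and 0.393% for higher, and nothing is read from the comparison because the choice of the family used this contrast. At an unadjusted p under 0.05, 6 were lower and 0 higher, beside 11.2% and 7.52% of all genes. When libraries were scaled by their totals in place of TMM, 195 genes were lower and 71 higher over the whole table, against 361 and 63 with TMM, and *Ces1d* and *Ces1g* stayed past the threshold. DESeq2 placed 3 lower at that threshold after adjustment, with *Ces2e* added, and 0 higher. The shares beside them were 5.11% and 1.22% of the 14588 genes to which DESeq2 gave an adjusted p. Every DESeq2 share below is of these genes. The number of lower genes among the 8 changed when some single libraries were left out and when the filter was dropped. It was 0 without Control replicate 1, 0 without KSPAPN replicate 3, 1 without Control replicate 2, and 6 when no filter on low counts was used. With no filter the fold changes hardly moved while the standard errors of the 8 genes were smaller. That of *Ces1f* was 0.107, against 0.226 with the filter. Calls over the whole table moved in the same fits. They were 34 lower of 16510 genes without Control replicate 1, and 60 of 16408 without KSPAPN replicate 3. Without Control replicate 2 they were 116 of 16575, and with no filter 1038 of 29418.

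The Ces1 genes that could be compared all had negative log2 fold changes, with groups separate in FPKM for *Ces1d* and *Ces1g* and overlapping for *Ces1e* and *Ces1f*. *Ces1g* (ENSMUSG00000057074, bases 93302369 to 93337308, minus strand) encodes a lipid hydrolase studied mostly in liver, where its loss raises the output of triacylglycerol-rich lipoproteins. Its FPKM was 12.6, 4.13 and 4.17 in Control replicates 1 to 3, and 0.449, 1.33 and 1.27 in KSPAPN replicates 1 to 3. The groups did not overlap, and Control replicate 1 was 3.04 times the lowest Control library. Control had 556, 171 and 175 reads of this gene, and KSPAPN had 25, 58 and 63. The log2 fold change was -2.79 (standard error 0.50), or 6.91-fold lower in KSPAPN, and -2.04 without Control replicate 1. Among 13805 protein-coding genes tested, *Ces1g* was at place 8 from the lowest log2 fold change, while the next of the family, *Ces1d*, was at place 157.

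*Ces1d* (ENSMUSG00000056973, bases 93166068 to 93197838) encodes the enzyme long known as triacylglycerol hydrolase, which mobilises stored triacylglycerol in liver and fat. Its FPKM was 118, 135 and 96.8 in Control and 37.3, 65.7 and 57.3 in KSPAPN. Every KSPAPN library lay below every Control library, and 2056 reads or more stood behind each value. The log2 fold change was -1.12 (standard error 0.19), or 2.18-fold lower. Leaving out single libraries moved it between -1.29 and -0.91.

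*Ces1f* (ENSMUSG00000031725) encodes a close relative of triacylglycerol hydrolase. It had 13057, 14241 and 10160 reads in Control and 6387, 10604 and 9799 in KSPAPN, or 213.5 ± 37.0 and 134.7 ± 47.3 FPKM (SD, n = 3). In FPKM, KSPAPN replicate 2 at 176.6 was just above Control replicate 3 at 176.0, while the groups did not overlap in TMM-scaled CPM, which corrects the library totals for composition. The log2 fold change was -0.66 (standard error 0.23), or 1.58-fold lower, and -0.40 without KSPAPN replicate 1. *Ces1e* (ENSMUSG00000061959) encodes egasyn, which binds β-glucuronidase and keeps part of it in the endoplasmic reticulum. It had 47.7, 44.2 and 31.2 FPKM in Control and 14.7, 31.4 and 25.1 in KSPAPN, and its groups were again separate in CPM but not in FPKM. The log2 fold change was -0.79 (standard error 0.23), or 1.73-fold lower, and -0.52 without KSPAPN replicate 1. *Gusb*, the gene of β-glucuronidase itself, was between 7.58 and 12.8 FPKM in all 6 libraries (log2 fold change -0.075, edgeR adjusted p = 0.845), and was named after its values were seen.

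The Ces2 genes that could be compared had log2 fold changes of both signs. *Ces2e* (ENSMUSG00000031886) was at 5.66, 6.88 and 4.76 FPKM in Control and 2.83, 4.42 and 3.16 in KSPAPN. All KSPAPN libraries were below all Control libraries. The log2 fold change was -0.73 (standard error 0.20), or 1.66-fold lower, from 177 to 322 reads per library. *Ces2c* (ENSMUSG00000061825), for a hydrolase of acylglycerols and acylcarnitines, was at 79.4, 157 and 119 FPKM in Control and 74.7, 92.7 and 89.4 in KSPAPN. Control replicate 1 lay within the range of KSPAPN, so the groups overlapped. The log2 fold change was -0.46 (standard error 0.20), and -0.21 without Control replicate 2. *Ces2b* (ENSMUSG00000050097) ranged from 3.02 to 10.2 FPKM in Control, wider than its range of 4.07 to 6.07 in KSPAPN. Its log2 fold change of -0.32 was smaller than its standard error of 0.35, and it was 0.27 without Control replicate 2. *Ces2g* (ENSMUSG00000031877) was at 1.44 to 2.04 FPKM in Control and 1.48 to 2.39 in KSPAPN, and its log2 fold change of 0.094 was smaller than its standard error of 0.23. The sign turned without Control replicate 2 (-0.023) or KSPAPN replicate 2 (-0.12).

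**Figure D2:**
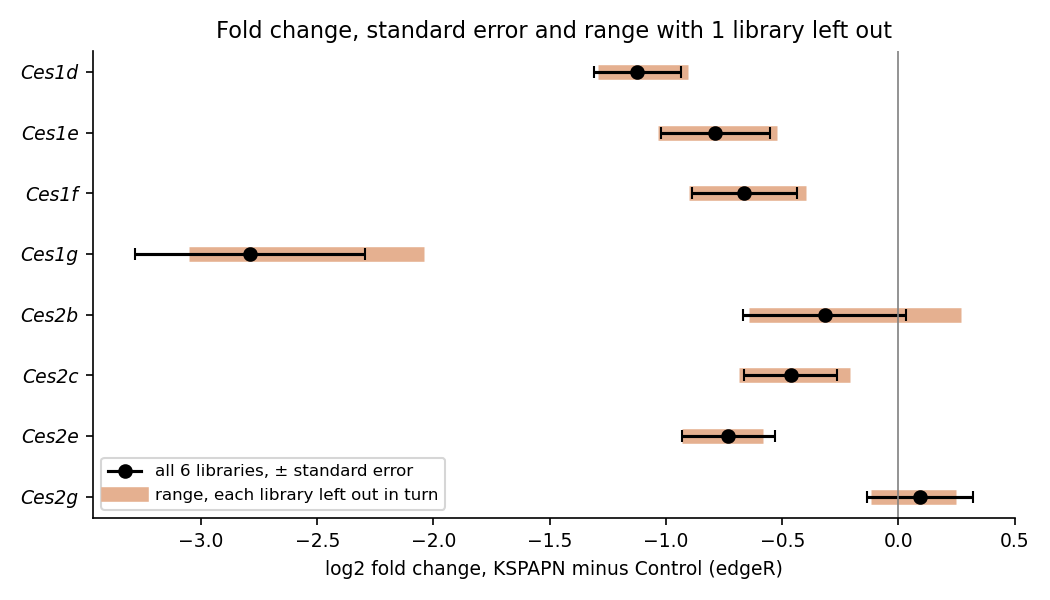
Log2 fold change of each carboxylesterase, KSPAPN minus Control, from edgeR, with points and standard errors for all 6 libraries and bands for the range over fits that drop 1 library. The bands of *Ces1d*, *Ces1e*, *Ces1f*, *Ces1g*, *Ces2c* and *Ces2e* stay below 0, and those of *Ces2b* and *Ces2g* cross it.

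In FPKM, 3 of the 8 genes (*Ces1d*, *Ces1g* and *Ces2e*) had every Control library above every KSPAPN library, as had 13.5% of all genes tested, and 0 had the reverse, as had 10.8%. In TMM-scaled CPM, *Ces1e* and *Ces1f* were added, and the share of all genes was 13.1%.

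*Ces1c* and *Ces2a*, the remaining pair, were near the lower end of detection. *Ces1c*, which encodes an esterase that the liver secretes into plasma, had 2, 2 and 0 reads in Control and 0, 5 and 9 in KSPAPN. That makes 0.0750 CPM in Control (95% exact interval 0.0204 to 0.192) and 0.238 in KSPAPN (0.130 to 0.399), intervals that cover counting error only. The KSPAPN libraries with *Ces1c* reads, replicates 2 and 3, were also those with the most reads of the liver genes *Alb* (15, 191 and 213 in KSPAPN replicates 1 to 3) and *Serpina3k* (0, 23 and 34), whose part in the *Ces1c* counts was not tested. Another liver gene, *Fgg*, had 46, 61 and 40 reads in KSPAPN replicates 1 to 3. *Ces2a* had 1 read in each group. No fold change is given for either gene, since most libraries were at or under 3 reads, or 0.144 to 0.175 CPM.

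The libraries differed among themselves in the same way for most of these genes. KSPAPN replicate 1 was the lowest KSPAPN library for all 8 genes compared and the lowest of all 6 libraries for 6 of them. The exceptions were *Ces2b*, lowest in Control replicate 1, and *Ces2g*, lowest in Control replicate 2. Control replicate 3 was the lowest Control library for *Ces1d*, *Ces1e*, *Ces1f* and *Ces2e*. Control replicate 1 had the highest *Ces1g* and *Ces1e* of any library, yet the lowest *Ces2b* and *Ces2c* in Control. Together the 10 genes accounted for 0.136%, 0.161% and 0.122% of counted reads in the Control libraries, against 0.0663%, 0.106% and 0.0949% in the KSPAPN libraries. The summed FPKM of the Ces1 genes was 378 ± 63.8 (SD, n = 3) in Control and 213 ± 70.8 in KSPAPN, and the groups did not overlap. That of the Ces2 genes was 132 ± 42.5 and 95.8 ± 11.2, with overlap.

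Ratios within a library do not depend on how libraries are scaled. The FPKM of *Ces1d* was 0.550, 0.540 and 0.550 times that of *Ces1f* in Control, and 0.446, 0.372 and 0.398 times in KSPAPN. This ratio varied little within Control and was lower in each KSPAPN library. The ratio of *Ces1e* to *Ces1f* was 0.222 in Control replicate 1 and between 0.174 and 0.178 in the other 5 libraries. *Ces1g* was 0.0586, 0.0165 and 0.0237 times *Ces1f* in Control and 0.00539, 0.00753 and 0.00885 times in KSPAPN. Control replicate 1 stood apart from the other Control libraries for this ratio too, at the higher end. The ratio of *Ces2b* to *Ces2c* overlapped between groups, at 0.0381 to 0.0650 and 0.0480 to 0.0680.

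**Figure D3:**
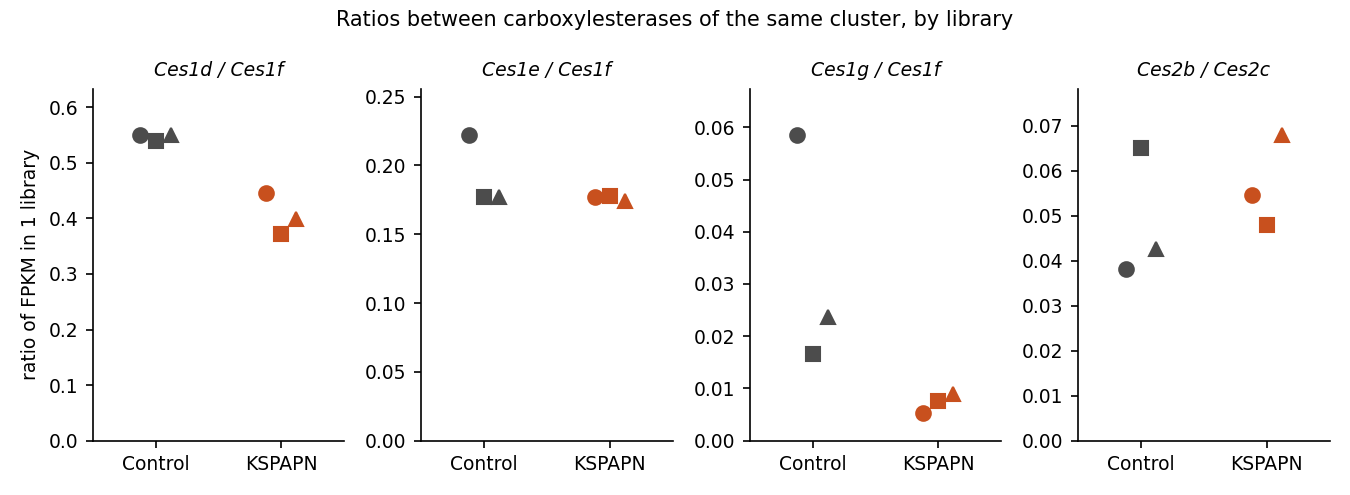
Ratios of FPKM between pairs of carboxylesterases within each library, with 1 point per library and axes from 0, grey for Control and orange for KSPAPN. The *Ces1d* to *Ces1f* ratio is 0.540 to 0.550 in Control and 0.372 to 0.446 in KSPAPN, while the *Ces1e* to *Ces1f* ratio of KSPAPN lies within the range of Control or just under it.

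Copies of a duplicated gene can share reads, so the longest transcript of each gene was cut into all stretches of 100 bases and compared with every annotated transcript. *Ces1d*, *Ces1e*, *Ces1f*, *Ces1g*, *Ces2e* and *Ces2g* had 0 stretches in common with another gene. *Ces2c* shared 16.0% of its stretches, nearly all of them with the pseudogene *Ces2d-ps*. How far this affects the counts of *Ces2c* was not tested. *Ces2d-ps* itself had 2 to 11 reads per library. *Ces2a* shared 10.7% with *Gm7208*, *Ces1c* 1.39% with *Ces1b*, and *Ces2b* 0.0907% with *Gm6831*. *Gm45909*, with 11 to 46 reads per library, lies within *Ces1d* on the same strand. The longest *Ces1d* transcript shares 0 stretches with it, and other *Ces1d* transcripts were not examined.

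Of 10 other mouse genes and pseudogenes with a carboxylesterase symbol, *Ces2f* and *Ces2h* had enough reads for the test and neither passed it, whether by edgeR, by DESeq2 or at an unadjusted p under 0.05. *Ces2f* was at 5, 11 and 10 reads in Control and 9, 24 and 22 in KSPAPN, or 0.89 on the log2 scale with a standard error of 0.56 (edgeR adjusted p = 0.427). *Ces2h* was at 1.54 to 2.10 FPKM in Control and 1.11 to 1.99 in KSPAPN, or -0.19 on the log2 scale with a standard error of 0.27 (edgeR adjusted p = 0.753). *Ces1a* had 0 reads in all 6 libraries, which allows up to 0.144 to 0.175 CPM by the limit of 3 reads. *Ces1h* had 10, 2 and 3 reads in Control and 0, 0 and 3 in KSPAPN. *Ces1b*, *Ces3a*, *Ces3b*, *Ces4a* and *Ces5a* had between 0 and 8 reads in each library.

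Genes within 500 kb of the clusters that were not listed as carboxylesterases were compared as well. They include *Gm8798*, a pseudogene within the Ces2 cluster that shares 48.3% of the 100-base stretches of *Ces2d-ps*. Its log2 fold change was 0.15 (edgeR adjusted p = 0.886). Of 5 tested near the Ces1 cluster and 33 near the Ces2 cluster, 0 were past an adjusted p of 0.05 from edgeR in either direction, where 2.65% of all genes were. At an unadjusted p under 0.05, 3 of them were lower and 2 were higher, beside 11.2% and 7.52% of all genes. DESeq2 called 0, and edgeR with no filter on low counts 1. The median log2 fold change was 0.41 near Ces1 and -0.12 near Ces2. *Cdh16*, for Ksp-cadherin, whose promoter drives the transgene, had the highest level of these genes, at 289 ± 18.2 FPKM (SD, n = 3) in Control and 246 ± 4.89 in KSPAPN. It differed by -0.23 on the log2 scale with a standard error of 0.095 (edgeR adjusted p = 0.236). *Hsd11b2*, for the enzyme that inactivates corticosterone, was at 93.4 ± 9.51 and 75.3 ± 2.40 FPKM, or -0.30 on the log2 scale (edgeR adjusted p = 0.133). The pseudogene *Gm45727*, between *Ces1e* and *Ces1f*, was at 6.60, 4.64 and 4.28 FPKM in Control and 1.58, 6.41 and 3.12 in KSPAPN, with overlap (adjusted p = 0.588). It was chosen for its place after its values were seen.

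**Figure D4:**
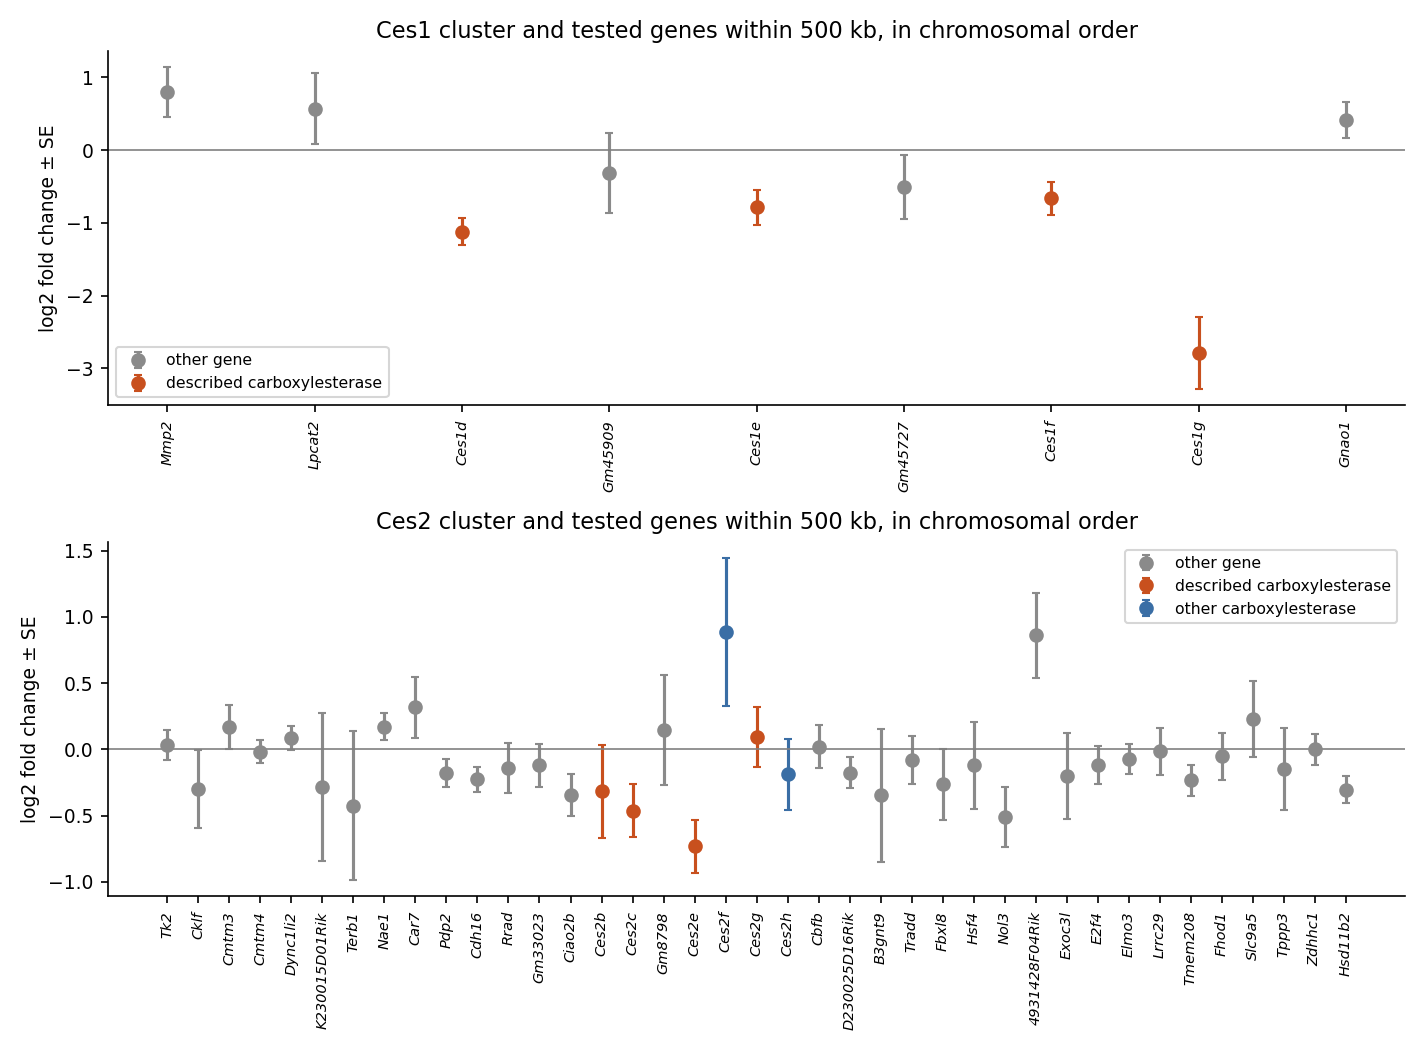
Log2 fold changes with standard errors for tested genes of the Ces1 cluster (top) and the Ces2 cluster (bottom) and for tested genes within 500 kb, in chromosomal order without distances. The 4 Ces1 genes lie at or below -0.66. Of the 5 other genes tested near them, *Mmp2*, *Lpcat2* and *Gnao1* lie at or above 0.41, and *Gm45909* and *Gm45727* at -0.32 and -0.50. The standard errors of these 5 are 0.25 to 0.55. Orange points are the carboxylesterases described here, blue points other carboxylesterases, and grey points other genes, of which 0 passed an adjusted p of 0.05.

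Other esterases and neutral lipases form the biochemical neighbourhood of the family. Of 32 such genes, 28 were tested, with a median log2 fold change of -0.066. By edgeR at an adjusted p under 0.05, 3 were lower and 0 higher, beside 2.25% and 0.393% of all genes. At an unadjusted p under 0.05 there were 7 lower and 2 higher of the 28, where the shares of all genes were 11.2% and 7.52%. DESeq2 gave 5 and 0 after adjustment, beside 5.11% and 1.22%. *Afmid*, for kynurenine formamidase, fell from 6.24 ± 0.659 to 2.91 ± 0.556 FPKM (SD, n = 3), a log2 fold change of -1.10 (adjusted p = 0.0114). *Cmbl*, for a hydrolase that activates ester prodrugs, fell from 109.6 ± 16.8 to 66.2 ± 7.07 FPKM (log2 fold change -0.72, adjusted p = 0.0180). *Bphl*, for a valacyclovir hydrolase, fell from 87.3 ± 6.22 to 60.0 ± 5.93 FPKM (log2 fold change -0.54, adjusted p = 0.0248). None of the 3 passed without Control replicate 1 (adjusted p 0.0701 to 0.129) or without KSPAPN replicate 3 (0.0556 to 0.107), and only *Afmid* did without Control replicate 2. *Aadac*, for a deacetylase of the endoplasmic reticulum, was at 80.5 ± 11.6 and 79.2 ± 9.31 FPKM (edgeR adjusted p = 0.955). *Lpl*, for lipoprotein lipase, was at 108.5 ± 27.3 and 63.7 ± 22.0 FPKM (log2 fold change -0.76, adjusted p = 0.122). Both were named after their values were seen.

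Of 16 genes that handle retinol and retinyl esters, substrates of some Ces1 enzymes, or that encode β-glucuronidase, 14 were tested and 1 was lower. This was *Adh1*, for a retinol-oxidising alcohol dehydrogenase, which fell from 167 ± 36.0 to 78.2 ± 19.3 FPKM (SD, n = 3 libraries), a log2 fold change of -1.09 (adjusted p = 0.0180 from edgeR). Of 18 genes of lipid droplets and lipoprotein assembly, 17 were tested, and *Fitm1* and *G0s2* were lower. *Fitm1*, which helps to form lipid droplets, fell from 29.8 ± 3.98 to 14.1 ± 2.06 FPKM (log2 fold change -1.07, adjusted p = 0.00865). *G0s2*, for an inhibitor of adipose triglyceride lipase, fell from 32.1 ± 15.2 to 12.1 ± 1.85 FPKM (log2 fold change -1.41, adjusted p = 0.0297). Neither list had a gene that was higher by edgeR after adjustment. The shares of all genes at that threshold were 2.25% lower and 0.393% higher. Without adjustment, at p under 0.05, 5 retinoid genes were lower and 3 higher, and 3 lipid droplet genes were lower and 1 higher, where the shares of all genes were 11.2% and 7.52%. DESeq2 called 2 retinoid genes lower and 0 higher, and 2 lipid droplet genes lower and 1 higher, beside 5.11% lower and 1.22% higher. *Adh1*, *Fitm1* and *G0s2* all had an edgeR adjusted p above 0.05 without Control replicate 1 (0.0534 to 0.0960). *Adh1* was also above it without Control replicate 2 (0.0632), *G0s2* without KSPAPN replicate 2 (0.0695), and both without KSPAPN replicate 3 (0.0952 and 0.0895).

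In a whole kidney, fewer cells of a type and less RNA per cell cannot be told apart, so markers of nephron segments and of other tissues were set beside the carboxylesterases. Of 8 markers of the late (S3) part of the proximal tubule, edgeR found 3 lower after adjustment (adjusted p under 0.05), beside 2.25% of all genes. At an unadjusted p under 0.05, 7 were lower, beside 11.2%, and DESeq2 called 5 lower after adjustment, beside 5.11%. In FPKM, 7 of the 8 had every Control library above every KSPAPN library, as had 13.5% of all genes tested. By each of these counts 0 were higher. Over all 8 markers the log2 fold changes had a median of -1.10 and were negative, from -2.10 to -0.027 for *Slco1a6*, whose groups overlapped. *Cyp7b1*, for oxysterol 7α-hydroxylase, fell from 68.3 ± 19.9 to 16.0 ± 4.47 FPKM (SD, n = 3), a log2 fold change of -2.10 (adjusted p = 0.00581). *Slc22a7* and *Slc7a13*, transporters of organic anions and of amino acids, fell with log2 fold changes of -1.68 and -1.46 (adjusted p = 0.0136 and 0.0259). Without Control replicate 1 the adjusted p of *Slc22a7* was 0.0674, and that of *Slc7a13* was above 0.05 without Control replicate 1, Control replicate 2 or KSPAPN replicate 3 (0.0770 to 0.113). Most of the summed FPKM of the S3 list was *Cyp4b1*, at 1172, 1524 and 799.1 FPKM in Control and 451.4, 781.9 and 567.4 in KSPAPN. *Cyp4b1* and *Slc7a13* each put the libraries in the order of the sum, and the other markers did not. *Slc22a7*, for example, was higher in KSPAPN replicate 3 than in KSPAPN replicate 2. The sum was 2039, 2450 and 1477 in Control and 730.5, 1295 and 1032 in KSPAPN. Of the 8 carboxylesterases compared, 2 (*Ces1d* and *Ces2e*) put the 6 libraries in the same order as this sum, from Control replicate 2 at the top to KSPAPN replicate 1 at the bottom, and the other 6 put them in other orders. *Ces1f* departed from it only in that KSPAPN replicate 2 (176.6 FPKM) stood just above Control replicate 3 (176.0). The summed FPKM of the Ces1 genes had the order of the S3 sum, from 433.2 in Control replicate 2 to 135.9 in KSPAPN replicate 1. The part of S3 markers in the differences of the carboxylesterases was not tested.

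Of 12 general proximal tubule markers, 11 had a negative log2 fold change, beside 48.1% of all genes tested. *Miox* (log2 fold change -0.60, adjusted p = 0.0268 from edgeR) and *Slc22a6* (-0.46, adjusted p = 0.0388) passed as lower, beside 2.25% of all genes. The summed FPKM of the 12 markers was 4110 to 4732 in Control and 3598 to 3843 in KSPAPN. Of 11 markers of the loop of Henle, distal tubule and collecting duct, 4 had a negative and 7 a positive log2 fold change. At an unadjusted p under 0.05 from edgeR, 3 were lower and 1 higher, beside 11.2% and 7.52% of all genes. In FPKM, 2 had every Control library above every KSPAPN library and 1 the reverse, beside 13.5% and 10.8%. DESeq2 called 0 lower and 1 higher after adjustment, beside 5.11% and 1.22%. *Slc12a1*, the loop's sodium, potassium and chloride cotransporter, was higher at an edgeR adjusted p of 0.0437, where 0.393% of all genes passed as higher. The edgeR calls of *Miox*, *Slc22a6* and *Slc12a1* were each lost in 4 or 5 of 6 fits that left out 1 library, Control replicate 1 among them (adjusted p 0.139 to 0.193). *Podxl*, a podocyte marker, had a log2 fold change of 0.24 (edgeR adjusted p = 0.446). *Slc34a1*, the phosphate transporter that defines proximal tubule, was at 980.2 to 1368 FPKM in the 6 libraries.

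The label text on RNA extraction speaks of liver, and several carboxylesterases are abundant in liver and fat. Of 12 hepatocyte markers, 8 were tested and 1, *Ttr*, was lower, from 114 ± 39.7 to 50.7 ± 12.6 FPKM (SD, n = 3; adjusted p = 0.0388 from edgeR, and 0.109 to 0.175 without Control replicate 1, Control replicate 2 or KSPAPN replicate 3). At an edgeR adjusted p under 0.05, 2.25% of all genes were lower. The list summed to 85.6 to 167 FPKM in Control and 57.7 to 88.7 in KSPAPN, and most of the sum was *Ttr*. The albumin gene *Alb* had 111, 100 and 47 reads in Control and 15, 191 and 213 in KSPAPN, at most 4.46 FPKM. *Cps1* had 0 reads in Control and 1, 14 and 31 in KSPAPN, *Serpina3k* 0, 3 and 3 and then 0, 23 and 34, and *Ahsg* 1, 0 and 1 and then 2, 14 and 15. *Alb*, *Cps1*, *Serpina3k* and *Ahsg* were thus highest in KSPAPN replicates 2 and 3 and low in KSPAPN replicate 1, unlike *Ttr*. *Tat* had 0 reads in Control and 0, 3 and 3 in KSPAPN. *Fgg* was unlike them too, at 107, 101 and 58 reads in Control and 46, 61 and 40 in KSPAPN (log2 fold change -1.04, edgeR adjusted p = 0.109). *Fga*, *Apoa1*, *Apoa2*, *Fgb* and *Hp* had log2 fold changes of -0.37, -0.38, -0.12, 0.13 and 0.29 (edgeR adjusted p 0.48 to 0.93). Of 10 adipocyte markers other than *Adipoq*, 6 were tested and 0 passed by edgeR or DESeq2, with 1 higher at an unadjusted p under 0.05, beside 7.52% of all genes. Their sum was 13.3 to 14.2 FPKM in Control and 14.1 to 17.8 in KSPAPN. *Fabp4* and *Lipe* had log2 fold changes of 0.34 and 0.013 (adjusted p = 0.209 and 0.978), and *Plin1* was at most 0.118 FPKM. Of 7 adrenal cortex markers, 1 was tested and did not pass. *Cyp11b1* and *Cyp11b2* had 0 reads, *Star* was at 1.46 ± 0.171 and 1.87 ± 0.532 FPKM, and *Mc2r* at 0.144 ± 0.148 and 0.183 ± 0.0335.

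**Figure D5:**
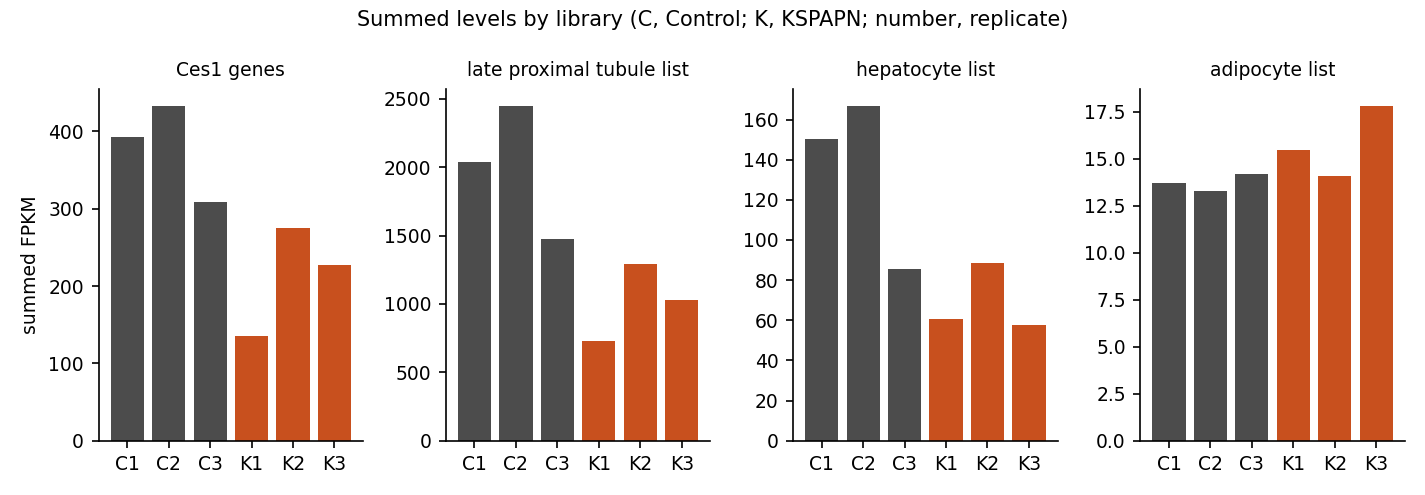
Summed FPKM in each library of the Ces1 genes and of the late proximal tubule, hepatocyte and adipocyte lists, as bars from 0, grey for Control and orange for KSPAPN. The Ces1 and late proximal tubule sums are highest in Control replicate 2 and lowest in KSPAPN replicate 1, and the adipocyte sum, 13.3 to 17.8, is not lower in KSPAPN. Most of the late proximal tubule sum is *Cyp4b1*.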

How the data were processed

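RNA of 6 mouse kidney libraries (3 Control, 3 KSPAPN) was enriched with oligo(dT) beads and sequenced by the authors, who deposited a read count and an FPKM value for every gene and library. The deposited counts are whole numbers without normalization. The authors' FPKM divide reads by gene length and library size. The submitters' processing notes name STAR 2.5, TopHat, HTSeq 0.6.1, DESeq2 and edgeR, without a role for each. Genome build, annotation, strandedness and the total behind FPKM were not given in the sources used here.

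Libraries were grouped by their titles, and the genes and lists were chosen with earlier results of these data known. Of 54532 genes, 54495 matched GENCODE M21 (GRCm38) by identifier. Counts were compared with edgeR 4.0.16 in R 4.3.3 (TMM factors, filter with minimum count 10 and minimum total 15, quasi-likelihood test, two-sided, Benjamini-Hochberg adjustment over 16017 genes). A standard error is the log2 fold change divided by the square root of F. The p-values measure the spread between pools of mice. Alternatives were DESeq2 1.42.0, RLE factors, library totals, no filter, limma 3.58.1 on log2(FPKM + 1) and log2(FPKM + 0.1), a replicate block, and each library left out. The scripts were tested on simulated counts.

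All listed carboxylesterases were named, and of the other lists at most 6 genes past an adjusted p of 0.05, or where none passed the 2 with the highest mean FPKM. *Adipoq*, *Slc34a1*, *Slco1a6*, *Alb*, *Cps1*, *Serpina3k*, *Ahsg*, *Plin1*, *Cyp11b1*, *Cyp11b2*, *Mmp2*, *Lpcat2*, *Gnao1* and *Gm45909* lie outside this rule and were named with their values known. So do, and were, *Tat*, *Fgg*, *Fga*, *Apoa1*, *Apoa2*, *Fgb*, *Hp*, *Cyp4b1* and *Gm8798*. A result of the podocyte list is not reported here. Promoter windows and transcripts came from RefSeq (GRCm38.p6) and GENCODE M21, aligned with Biopython 1.88. Reads carry no molecular identifiers, so intervals cover counting error only. Raw reads were not used here.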

Additional observations from a re-analysis of the deposited data

How the results depend on the processing

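Of 104 values for the 8 carboxylesterases compared, under 13 alternatives, 85 kept their direction and their side of an adjusted p of 0.05. Another 9 were no longer past it, 7 were newly past it, and 3 changed sign, each with 1 library left out: *Ces2b* (0.27) and *Ces2g* (-0.023) without Control replicate 2, and *Ces2g* (-0.12) without KSPAPN replicate 2. The cause was not tested. With single libraries left out, *Ces2b* ranged from -0.64 to 0.27 and *Ces2g* from -0.12 to 0.25. The lower carboxylesterases numbered 6 without a filter on low counts, 0 in both limma fits, and 0 to 3 with each library left out. The higher ones numbered 0 throughout.

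Over all genes, 746 were lower and 178 higher with DESeq2, 1038 and 301 without a filter, 118 and 10 in limma on log2(FPKM + 1), 109 and 10 on log2(FPKM + 0.1), and 195 and 71 with library totals only, where the median of all genes tested moved to 0.081. With each library left out, 34 to 571 were lower and 5 to 162 higher.

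The list counts moved with the same settings. DESeq2 called 5 esterases and lipases, 2 retinoid genes and 11 cell markers. Without a filter there were 7, 3 and 19, with 1 neighbouring gene. Both limma fits called 1, 0 and 1, with 1 lipid droplet gene. Each library left out gave 0 to 4 esterases and lipases, 0 to 2 retinoid genes, 1 to 11 cell markers, 0 to 3 lipid droplet genes, and 0 neighbouring genes and other carboxylesterases.

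The replicate numbers share only a number: deviations of same-numbered libraries correlated at 0.054, 0.154 and 0.173, and every library correlated best with its own number, a hint from the data and not from the design. With the replicate number as a block, 705 genes were lower and 224 higher, with 3 carboxylesterases (*Ces2e* added), 6 esterases and lipases, 2 retinoid genes and 13 cell markers past an adjusted p of 0.05. *Ces1c* and *Ces2a* were too low to be fitted with the filter.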
